A study of Mus musculus with 6 samples.

Results

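The genes described here belong to linked parts of metabolism in mouse bone marrow cells: the enzymes that clear formaldehyde and the enzymes that carry one-carbon units on folate. The 9 genes were chosen by symbol for these functions and not by a rule on their measured levels, though earlier results of these data were known. All 9 were found among the 21606 genes of the count table. Adh5 and Esd form the glutathione route of formaldehyde oxidation, Shmt1, Mthfd1 and Aldh1l1 encode cytosolic folate enzymes, and Shmt2, Mthfd2, Mthfd1l and Aldh1l2 encode mitochondrial ones. Of the 9, 7 had enough counts to be tested between the sexes, and Aldh1l1 and Aldh1l2 did not.

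RNA was measured in cells sorted from the marrow of C57BL/6 mice, an inbred laboratory strain, for high activity of aldehyde dehydrogenases (ALDHbr cells). The sort enriches progenitor cells. There were 3 libraries from male and 3 from female mice, all labelled wild type; the labels used here give no treatment or age, nor whether a library is one animal or several. Separate animals are not stated for the replicates, and p-values therefore reflect the spread between these samples alone, which may be technical. Libraries were made by BRB-seq, a bulk method that barcodes each sample at reverse transcription and reads the 3' ends of transcripts.

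As background, formaldehyde arises in cells from demethylation reactions and from folate itself, and it reacts with glutathione to give the substrate of the alcohol dehydrogenase encoded by Adh5. S-formylglutathione hydrolase, encoded by Esd, then releases formate. Folate enzymes take a one-carbon unit from serine, oxidise it to formate in mitochondria and return it to the cytosol for purine and thymidylate synthesis. Blood-forming cells of mice are known to depend on Adh5 together with Aldh2 to withstand formaldehyde made in the body.

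Library totals ran from 679724 to 880074 counts in males and from 1199551 to 1475224 counts in females, so the mean total in males was 0.605 times that in females. No library was a copy of another (chi-square per degree of freedom of at least 1.78 in every pair). Male replicate 2, the shallowest library, stood apart on the first principal component, which held 39.2% of the variance (its score was 32.1, against 8.67 and -4.26 in the other male libraries and -13.1 to -10.9 in the female ones). Myeloid progenitor markers were abundant in every library, with a summed level of 6 genes of 13140 to 14150 CPM in males and 14730 to 15420 CPM in females. Every male sum lay below every female one, and 0 of 6 genes passed the test of edgeR described below. CPM here are counts per 1e+06 counts of the tested genes after TMM scaling.

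No member passed the test between male and female cells. The test was the quasi-likelihood F test of edgeR, adjusted by Benjamini and Hochberg over 8460 tested genes with a threshold of 0.05. By it 0 of 7 members were higher in males and 0 were lower, where 0.426% and 0.154% of all tested genes were (0.579% in either direction). At an unadjusted level of 0.05, 2 of 7 members (28.6%) were past the threshold, against 11.3% of all tested genes. These were Adh5, with a higher level in males, and Mthfd2, with a lower one, as for 6.83% and 4.5% of all tested genes. DESeq2 and limma-voom had 1 (Adh5) and 2 (Adh5 and Mthfd2) of 7 at that level, where they had 5.9% and 11% of all tested genes; limma-voom left 0 after adjustment and DESeq2 gave no adjusted p for any of the 7. The median log2 fold change of the 7 was -0.11, beside -0.003 over all tested genes, and 5 of 7 lay below 0 (71.4%, beside 50.7% of all tested genes).

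**Figure D1:**
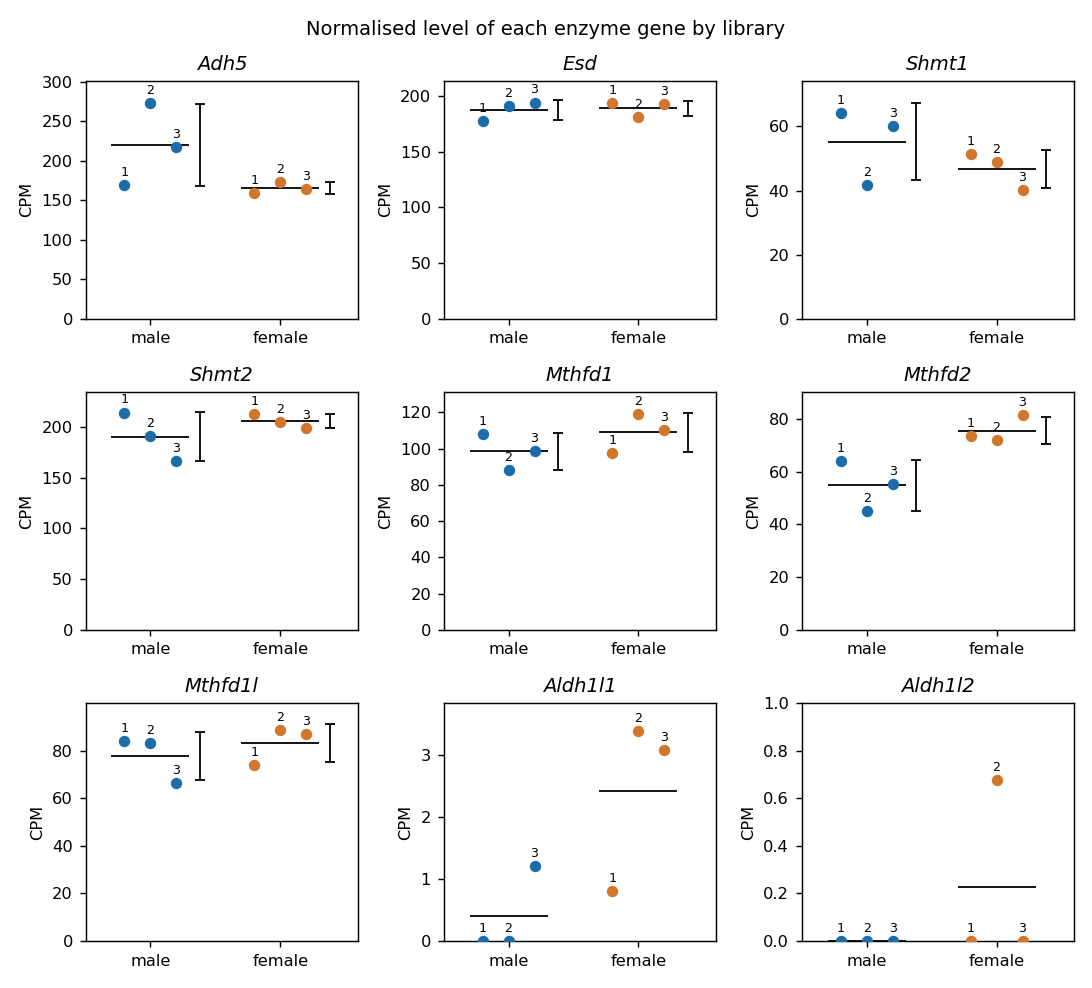
Level of each of the 9 genes in each library, in CPM on linear axes that start at 0, with male libraries in blue on the left and female libraries in orange on the right. Numbers beside the points are replicate numbers, horizontal lines are means, and bars give 1 SD (n = 3), drawn for the 7 tested genes. Mthfd2 is the gene whose male points all lie below its female points among these 7, and Adh5 is highest in male replicate 2.

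Adh5 encodes the dehydrogenase that oxidises the adduct of formaldehyde and glutathione (chromosome 3, 138443093 to 138455499, plus strand, GRCm38, GENCODE M21). Its level was 169, 273 and 217 CPM in male replicates 1, 2 and 3, against 159, 173 and 164 CPM in the female ones. Male replicates 2 and 3 lay above every female library, while male replicate 1 lay between the female values. The means were 219.5 ± 52.0 CPM in males and 165 ± 7.48 CPM in females (SD, n = 3 each). The fold change was 1.31 (95% interval 1.07 to 1.61; log2 fold change 0.39 ± 0.14, SE), and the difference did not pass (adjusted p = 0.265, edgeR). The spread of the male libraries was 23.7% of their mean, where counting error alone gives 7.83%; in females it was 4.52%, where counting error gives 6.71%. Stretches of Adh5 transcripts of up to 94 bases match transcripts of 141 other genes, so some reads may not be unique to it.

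The result for Adh5 depended on which male library was in the fit. Without male replicate 1 it passed, with a log2 fold change of 0.55 and an adjusted p of 0.00917 (edgeR), in a fit in which 3.75% of 8989 tested genes were higher in males. Without male replicate 2 the log2 fold change was 0.22 (adjusted p = 0.728, edgeR). Over all alternatives with an adjusted p it ranged from 0.00917 to 0.728. Male replicate 2 also had the highest summed level of 4 lung epithelium markers, 421 CPM against 211 and 217 CPM in the other male libraries and 136 to 191 CPM in females (0 of 4 passed). The same held for 5 stromal markers, with 236 CPM against 96.7 and 106 CPM in the other male libraries and 63.1 to 97.4 CPM in females (0 of 3 tested passed). The 6 libraries were pooled for sequencing with 10 samples of lung, which were not analysed. No marker of either list was at 0 in all libraries. Male replicate 2 was also highest in the summed levels of erythroid, megakaryocyte, monocyte and late neutrophil markers (366, 111, 3050 and 13.3 CPM). It was not the highest in the other marker lists. The part of any of these cells in the level of Adh5 was not tested. In bulk samples, fewer cells of a type and less RNA per cell cannot be told apart.

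Esd encodes the hydrolase of the next step (chromosome 14, 74732297 to 74750765, plus strand). It had 177, 191 and 194 CPM in the male libraries, against 193, 181 and 192 CPM in the female ones. The groups overlapped, with a fold change of 0.992 (95% interval 0.838 to 1.17, adjusted p = 0.985 by edgeR). The spread between libraries was 4.86% of the mean in males and 3.67% in females, below the counting error of 8.37% and 6.30%. Esd has 9 near-identical copies among the annotated transcripts, which match it over 848 to 854 bases at 96.0% to 96.6% identity. The copies held 1 count in all, in the pseudogene Esd-ps, and how reads matching several copies were counted is not known, so the level of Esd is uncertain to that extent.

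Adh5 and Esd together had 346, 464 and 411 CPM in the male libraries, against 352, 354 and 356 CPM in the female ones. The male values ran on both sides of the narrow female range. The male over female ratio of the means was 1.15, and with single libraries left out it ran from 1.07 without male replicate 2 to 1.24 without male replicate 1. No test was made of sums over members.

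The promoters of Adh5 and Mthfd2 are shown because these 2 members had the smallest p-values, in opposite directions. They are RefSeq windows of GRCm38.p6 from 250 bases before the transcription start to 50 after it. That of Adh5 lies at chr3:138442843-138443142, plus strand, and that of Mthfd2 at chr6:83317555-83317854, minus strand. Capitals mark the CCAAT box (CCAAT) and the GC box (GGGCGG), each on either strand.
Adh5: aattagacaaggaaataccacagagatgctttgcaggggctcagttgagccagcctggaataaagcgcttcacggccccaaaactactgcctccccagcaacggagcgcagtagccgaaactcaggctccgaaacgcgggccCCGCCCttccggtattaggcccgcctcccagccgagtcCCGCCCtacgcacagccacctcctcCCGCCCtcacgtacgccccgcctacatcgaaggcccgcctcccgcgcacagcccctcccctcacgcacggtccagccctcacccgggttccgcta
Mthfd2: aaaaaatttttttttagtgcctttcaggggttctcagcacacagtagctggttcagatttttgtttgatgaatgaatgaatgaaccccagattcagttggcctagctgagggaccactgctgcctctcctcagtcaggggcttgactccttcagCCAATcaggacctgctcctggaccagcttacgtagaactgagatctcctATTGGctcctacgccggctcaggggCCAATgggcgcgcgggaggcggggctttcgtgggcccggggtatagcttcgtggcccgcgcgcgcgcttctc

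RefSeq has a further Adh5 window 5893 bases upstream, which held none of the motifs searched; the printed one starts at the GENCODE start of the gene. The Mthfd2 window is of a start 8304 bases inside the GENCODE gene, and that of Aldh1l1 of one 64366 bases inside. The printed Adh5 window held 3 GC boxes and no CCAAT box, and the Mthfd2 window held 3 CCAAT boxes, at -96, -47 and -22 from the start, and no GC box. Of 8535 promoter windows of tested genes, 64.6% held a GC box and 22.1% held at least 3, while 37.9% held a CCAAT box and 5.37% held at least 3. In all, 9 windows were found for 8 of the 9 members. A CCAAT box was in those of 4 members (Shmt1, Mthfd1, Mthfd2 and Aldh1l1) and a GC box in those of 6 (Adh5, Esd, Shmt1, Mthfd1, Mthfd1l and Aldh1l1). The Shmt2 window held neither. It was the one member window with the palindromic NRF1 site, which 2.44% of the windows of tested genes held. The E-box CACGTG, the cAMP response element TGACGTCA and the motif TGATGNAAT of C/EBP-ATF dimers were in none of the windows of the members, and in 10.7%, 3.39% and 0.351% of those of tested genes. A match is a run of letters in the window and was not measured as a bound site.

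Mthfd2 encodes the mitochondrial methylenetetrahydrofolate dehydrogenase and cyclohydrolase that is high in dividing and embryonic cells (chromosome 6, 83305691 to 83325908, minus strand). Its level was 64.1, 44.9 and 55.4 CPM in male replicates 1, 2 and 3, against 73.3, 71.8 and 81.6 CPM in the female ones. All 3 male libraries lay below all 3 female libraries, which held for 1 of the 7 tested members and for 8.03% of all tested genes. The means were 54.8 ± 9.59 CPM in males and 75.6 ± 5.27 CPM in females (SD, n = 3 each). The fold change was 0.738 (95% interval 0.584 to 0.933; log2 fold change -0.44 ± 0.16, SE), which did not pass (adjusted p = 0.277, edgeR).

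The Mthfd2 difference kept its sign with every library left out, with log2 fold changes from -0.57 without male replicate 1 to -0.33 without male replicate 2. It did not pass in any alternative that gave an adjusted p, which ranged from 0.0837 to 0.663. The libraries held 128 Mthfd2 counts in males and 303 in females, so the counting error of a male library was 15.3% of the mean and the measured spread 17.5%.

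Shmt2 encodes the mitochondrial serine hydroxymethyltransferase, which splits serine into glycine and a one-carbon unit on folate (chromosome 10, 127517123 to 127522444, minus strand). It had 214, 191 and 166 CPM in the male libraries, against 213, 205 and 199 CPM in the female ones. Male replicates 2 and 3 lay below the female range and male replicate 1 just above it. The fold change was 0.927 (95% interval 0.776 to 1.11, adjusted p = 0.814, edgeR). Mthfd1l, whose product makes formate from formyl-folate in mitochondria (chromosome 10, 3973118 to 4167081, plus strand), had 83.9, 83.2 and 66.3 CPM in males, against 74.1, 88.7 and 86.97 CPM in females. Its groups overlapped, with a fold change of 0.927 (95% interval 0.747 to 1.15, adjusted p = 0.853, edgeR). Without male replicate 3 its log2 fold change was 0.0020.

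Aldh1l2, the gene of the mitochondrial enzyme that oxidises formyl-folate to carbon dioxide (chromosome 10, 83487450 to 83534140, minus strand), was nearly undetected. It had 0 counts in all 3 male libraries and in female replicates 1 and 3, and 1 count in female replicate 2. A count of 0 allows a level of up to 3.50, 4.99 and 3.61 CPM in male replicates 1, 2 and 3, against 2.42 and 2.31 CPM in female replicates 1 and 3. These limits cover counting error only. Its 3' end lies within D10Wsu102e, a gene on the opposite strand with 263 counts. Use of strand in counting is not stated, so reads of this pair may not be told apart, and the limits above do not cover that. The mitochondrial members together had 362, 319 and 288 CPM in males, against 360, 366 and 368 CPM in females, a ratio of 0.886, and the male and female values overlapped.

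Shmt1 encodes the cytosolic serine hydroxymethyltransferase (chromosome 11, 60788104 to 60811718, minus strand). It had 64.1, 41.6 and 60.3 CPM in the male libraries, against 51.5, 48.8 and 40.02 CPM in the female ones. Male replicates 1 and 3 lay above every female library and male replicate 2 lay inside the female range. The fold change was 1.21 (95% interval 0.923 to 1.58, adjusted p = 0.633, edgeR). Without male replicate 2, Shmt1 was the one member past an unadjusted level of 0.05 (log2 fold change 0.41, adjusted p = 0.62, edgeR), in a fit in which 7.68% of all tested genes were. The last 184 bases of the gene overlap the end of Smcr8 on the opposite strand, which had 73 counts beside 318 for Shmt1. The labels do not state if strand was used in counting, so reads of the pair may not be told apart.

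Mthfd1 encodes the cytosolic enzyme with dehydrogenase, cyclohydrolase and synthetase activities (chromosome 12, 76255298 to 76319803, plus strand). It had 108, 88.1 and 98.8 CPM in males, against 97.4, 119 and 110.1 CPM in females. The groups overlapped, and the fold change was 0.908 (95% interval 0.743 to 1.11, adjusted p = 0.779, edgeR). Aldh1l1, the cytosolic partner of Aldh1l2 (chromosome 6, 90486427 to 90600203, plus strand), had 0, 0 and 1 counts in male replicates 1, 2 and 3, against 1, 5 and 4 counts in the female ones. The ratio of its summed counts per scaled library size, male over female, was 0.175 with an exact 95% counting interval from 0.004 to 1.23, which includes 1. The 3 cytosolic members together had 172, 130 and 160 CPM in males, against 150, 171 and 153 CPM in females, a ratio of 0.975.

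**Figure D2:**
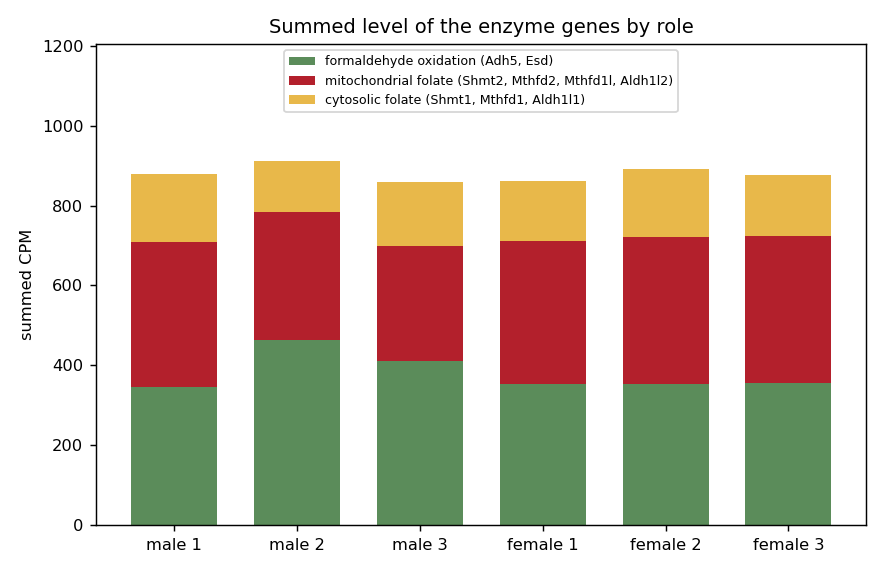
Summed CPM of the 9 genes in each library, stacked by role, with male libraries on the left and the axis starting at 0. The whole stack runs from 859 to 913 CPM in males and from 862 to 892 CPM in females, and the formaldehyde part is tallest in male replicate 2, at 464 CPM.

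The sum over the 9 genes overlapped between the sexes, at 884 ± 27.1 CPM in males and 877 ± 15.2 CPM in females (SD, n = 3 each). Within that sum the formaldehyde pair took 39.3%, 50.8% and 47.8% in male replicates 1, 2 and 3, against 40.8%, 39.7% and 40.6% in the female ones. Male replicates 2 and 3 lay above the female range and male replicate 1 below it. Of the folate members' sum, the mitochondrial genes held 67.8%, 71.1% and 64.3% in males, against 70.6%, 68.1% and 70.6% in females, with overlap. Per kilobase of annotated exons, the order of mean levels over the 6 libraries was Shmt2 (63.7 CPM per kb), Esd (55.9), Adh5 (35.6), Mthfd1 (23.3), Mthfd2 (18.7), Mthfd1l (18.2), Shmt1 (13.1), Aldh1l1 (0.313) and Aldh1l2 (0.015). The ranges of Shmt2 and Esd overlapped, as did those of neighbours from Mthfd1 to Shmt1 and of Aldh1l1 and Aldh1l2. Because reads come from transcript ends, the order was also taken without division by length. There Shmt2 (198 CPM), Adh5 (192) and Esd (188) came first, with the range of each overlapping that of the next, and Mthfd1l came before Mthfd2.

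The genes around these enzymes were read from the same fit. None of the 44 tested genes of 11 lists passed the test in either direction, and 6 were past an unadjusted level of 0.05 (13.6%, beside 11.3% of all tested genes). At that level DESeq2 had 5 and limma-voom 6 of 44, beside 5.9% and 11% of all tested genes; after adjustment limma-voom left 0, and DESeq2 gave an adjusted p for 9 of the 44, none below 0.05. Their median log2 fold change was 0.03, beside -0.003 over all tested genes, and 8 had all male libraries above all female ones, while 3 had them below (7.57% and 8.03% over all tested genes).

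Serine synthesis feeds the folate enzymes, and 0 of 3 tested genes passed, with log2 fold changes above 0 in all 3, except that Psat1 was below 0 by library size only, without male replicate 3 and without female replicate 2. Phgdh, the dehydrogenase of its first step, had 66.4, 89.8 and 79.5 CPM in males, against 64.4, 65.0 and 65.4 CPM in females (log2 fold change 0.26 ± 0.15, adjusted p = 0.557 by edgeR). The male libraries lay above the female ones, by a small margin in male replicate 1. Psat1, the aminotransferase of the next step, had 168 ± 13.5 CPM in males and 165 ± 9.68 CPM in females (SD, n = 3 each). Of the genes of folate uptake, trapping and entry into mitochondria, 0 of 4 tested passed. The hydrolase gene Ggh and the carrier gene Slc19a1 had log2 fold changes of 0.16 ± 0.16 and 0.01 ± 0.17 (SE).

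Among genes that reduce or use folate, 0 of 5 passed. Tyms, whose product makes thymidylate with a one-carbon unit from folate, had 130.4, 175 and 154 CPM in males, against 110.3, 118.5 and 125 CPM in females. Every male library lay above every female one (log2 fold change 0.36 ± 0.13, adjusted p = 0.272 by edgeR). Atic, of purine synthesis, lay the other way in every library, with 218, 206 and 198 CPM in males, against 228, 226 and 261 CPM in females (log2 fold change -0.20 ± 0.12, adjusted p = 0.567, edgeR). In other folate interconversion 0 of 2 tested genes passed. Mthfd2l, a paralog of Mthfd2, had 13.9 ± 6.69 CPM in males and 7.66 ± 3.12 CPM in females (SD, n = 3 each), with overlap.

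Of the glycine cleavage genes 0 of 2 tested passed. Dld, a dehydrogenase shared with other mitochondrial complexes, had 113, 125 and 137 CPM in males, against 95.8, 84.7 and 101 CPM in females, with no overlap (log2 fold change 0.42 ± 0.14, adjusted p = 0.224 by edgeR). Gcsh, the carrier protein of the complex, had a log2 fold change of -0.15 ± 0.17. In the methionine cycle 0 of 5 passed, with Mat2a at -0.08 ± 0.13 and Mat2b, its regulatory partner, at 0.15 ± 0.15 (SE). The glutathione used by Adh5 is made and kept reduced by 4 tested genes, of which 0 passed. Gsr, glutathione reductase, had 234, 188 and 223 CPM in males, against 319, 284 and 273 CPM in females, again with no overlap (log2 fold change -0.43 ± 0.13, adjusted p = 0.155, edgeR). Gclm had a log2 fold change of -0.07 ± 0.16. Without male replicate 1, Tyms and Dld passed as higher in males and Gsr as lower (adjusted p = 0.0369, 0.0462 and 0.0227, edgeR), in a fit in which 3.75% and 0.868% of all tested genes passed in these directions.

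Of the other aldehyde dehydrogenases 0 of 4 passed. Aldh2 had 405, 472 and 482 CPM in males, against 432, 421 and 365 CPM in females, and Aldh9a1 had a log2 fold change of -0.13 ± 0.13. Of the demethylating enzymes 0 of 1 tested passed; Kdm1a, a histone demethylase that releases formaldehyde, had a log2 fold change of -0.10 ± 0.16, and Kdm1b, its paralog, had 6, 6 and 6 counts in males, against 11, 13 and 19 counts in females, too few for the test. Relative to the shallower male libraries its levels overlapped, at 6.99, 9.98 and 7.23 CPM in males, against 8.86, 8.81 and 14.6 CPM in females. Atf4, a transcription factor known to drive Mthfd2 and serine synthesis genes under stress, had 312, 301 and 327 CPM in males, against 264, 249 and 222 CPM in females. Its male libraries lay above its female ones (log2 fold change 0.36 ± 0.12, adjusted p = 0.228 by edgeR). Those of Mthfd2 lay below, those of the serine synthesis genes Phgdh and Psph lay above, and those of Psat1 overlapped. None of these genes passed, and the part of Atf4 in their levels was not tested. Asns, a target of the same factor, had 12.1 ± 2.69 CPM in males and 16.3 ± 2.13 CPM in females (SD, n = 3 each). Of the 4 tested genes of that list 0 passed, their median log2 fold change was 0.21, and 1, Asns, lay below 0. For Ddit3, also of that list and with 80 counts in all, every male library lay above every female one. Its log2 fold change was 0.51 ± 0.32 (SE, adjusted p = 0.577 by edgeR), and Atf5 was at 0.06 ± 0.33. Of 10 S phase genes 0 passed, with a median log2 fold change of -0.05; Mcm6 and Pcna were at -0.001 ± 0.12 and 0.26 ± 0.13 (SE).

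**Figure D3:**
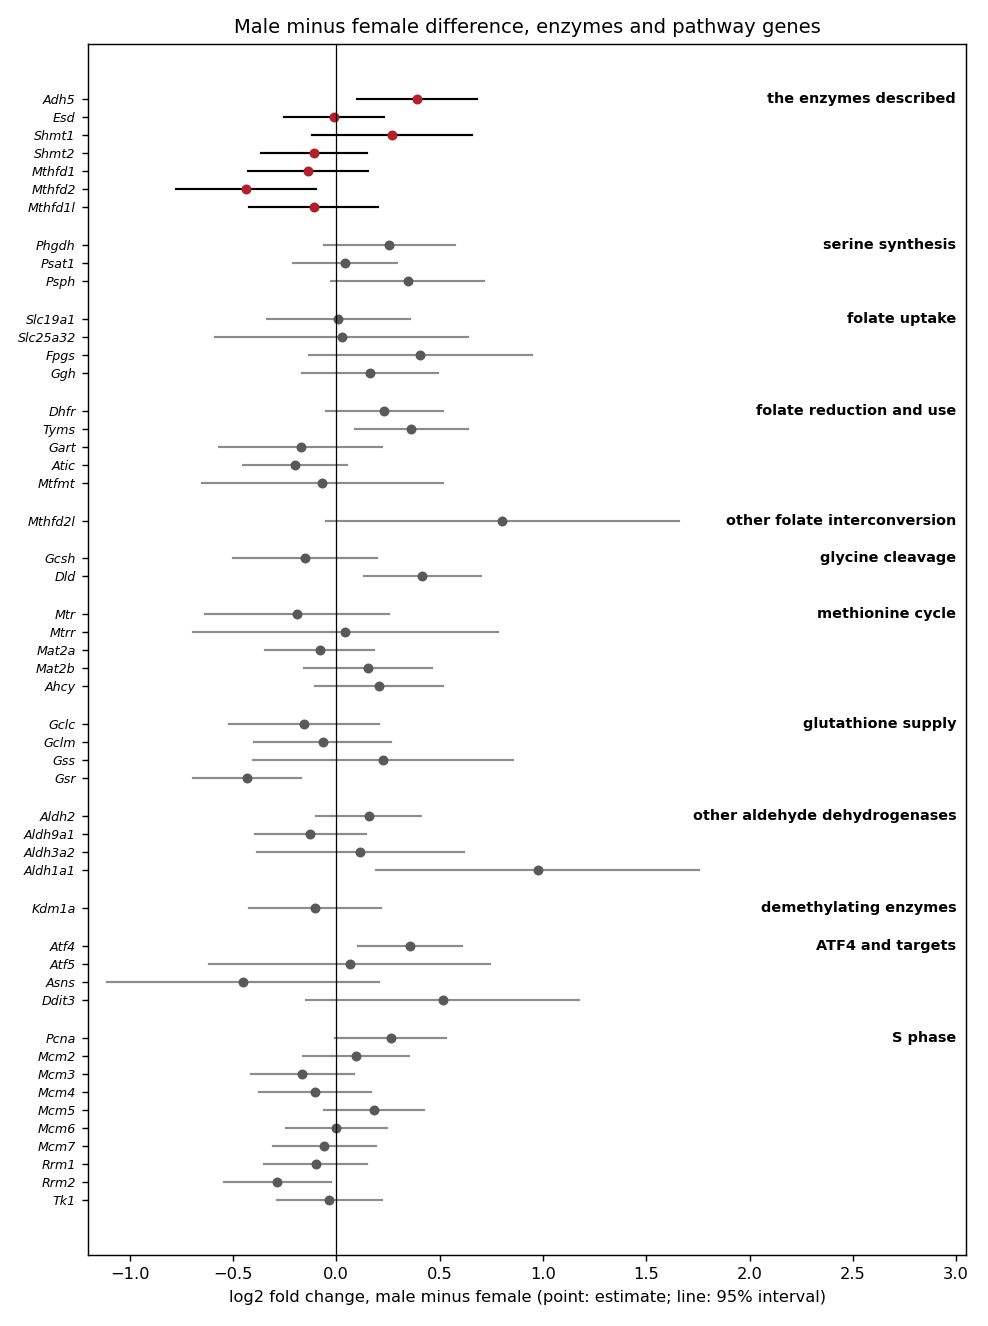
Log2 fold change, male minus female, of the 7 tested members (red points) and of 43 of the 44 tested genes of 11 pathway lists (grey points), with 95% intervals from edgeR's fit as horizontal lines. Among the members the intervals of Adh5 and Mthfd2 leave out 0, at 0.39 and -0.44, and none of the genes shown passed after adjustment over all tested genes.

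**Figure D4:**
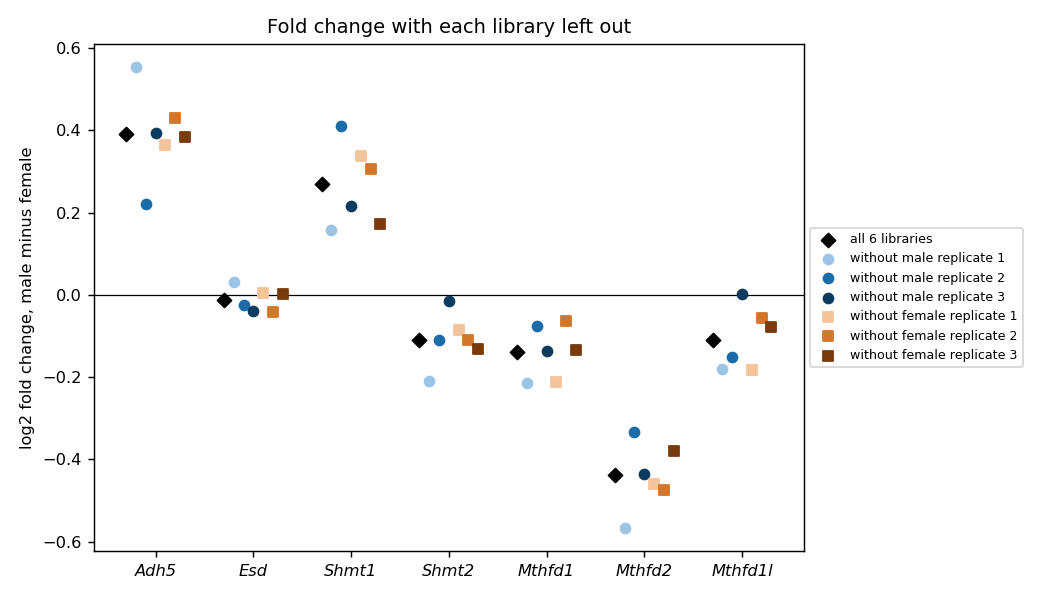
Log2 fold change, male minus female, of the 7 tested members with all 6 libraries (black diamonds) and with each library left out (blue circles for male, orange squares for female libraries). Adh5 lies lowest, at 0.22, when male replicate 2 is left out and highest, at 0.55, when male replicate 1 is, and Mthfd2 stays below 0 in each fit shown.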

How the data were processed

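The authors deposited one table of whole-number counts per gene, without normalisation. Per the labels' protocols, TRIzol and a spin column yielded the RNA, and BRB-seq placed a molecular identifier and a sample barcode in read 1. Per the submitters' processing notes, which give no roles, the tools were featureCounts 2.0.1, HISAT2 2.2.1, Trim Galore 0.6.7, DESeq2 and UMI-tools, and the builds GRCm38 and GRCh38. Collapsing of identifiers and use of strand are not stated. PCR copies may therefore be among the counts, and intervals from counts cover counting error only.

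Samples were grouped by the sex and number in their titles. Counts were kept with filterByExpr (minimum count 10, minimum total 15), which left 8460 of 21606 genes, scaled by TMM, and tested with edgeR 4.0.16 (R 4.3.3) by a quasi-likelihood F test, male minus female, without covariates. SE is the fold change over the root of F, and 95% intervals use its total degrees of freedom. Alternatives were other scalings and filters, DESeq2 1.42.0, limma-voom (limma 3.58.1) with and without sample weights, a replicate block, and each library left out, with the filter applied anew. Counts of 8460 genes were simulated, of which 200 were given a known change. The same scaling and test called 15.1% of those at a log2 change of 0.5, 77.8% at 1 and 95.3% at 2. The simulation gave every gene the same spread (biological coefficient of variation 0.102) and left out the filter. These shares do not cover genes or libraries with a larger spread. Coordinates are of GENCODE M21 (GRCm38), whose symbols and chromosomes matched for all 9 members; promoters are from RefSeq. Transcripts were compared with blastn at an identity of at least 95%. Near-identical copies are matches of at least 150 bases, and the short matches given for Adh5 are of at least 81 and fewer than 150 bases.

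The members and lists were chosen with earlier results of these data known. The genes named were all members, each pathway list's genes past the threshold or, with none, its 2 with the most counts, and the 3 genes most like the member with the most counts. The motifs, the ratios between members, Aldh1a1, Rrm2, Ddit3, Atf5 and single marker genes were chosen after values were seen. One pathway gene that the rule names is not reported here. Other marker lists are described in the closing section.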

Additional observations from a re-analysis of the deposited data

How the results depend on the processing

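Over the alternatives with an adjusted p, the count of members past the threshold was 0 in both directions, except that 1 member, Adh5, was higher in males without male replicate 1; over the libraries left out it ran from 0 to 1. DESeq2 gave no adjusted p for any member, so it has no such count. The pathway genes had 0 in both directions except without male replicate 1, where 2 were higher and 1 lower. The log2 fold change of Esd changed sign with sample weights in limma-voom (0.011) and with libraries left out, where it ran from -0.040 without female replicate 2 to 0.032 without male replicate 1 (above 0 also without female replicate 1, 0.0046, or 3, 0.0019). That of Mthfd1l ran from -0.18 without female replicate 1 to 0.0020 without male replicate 3. Over the scalings and the libraries left out, the male over female ratio of the summed levels ran from 1.07 to 1.24 for the formaldehyde pair, from 0.832 to 0.935 for the mitochondrial members and from 0.918 to 1.05 for the cytosolic ones, which lay above 1 without male replicate 2 or female replicate 2. Over all genes, 36 were higher in males and 13 lower. With libraries left out these counts ran from 19 (without male replicate 3) to 337 (without male replicate 1) higher, and from 4 to 78 lower, with 8 lower without female replicate 2. They were 81 and 35 with no filter (21606 genes tested), 101 and 20 with sample weights, and 8 lower by limma-voom. By DESeq2, which gave an adjusted p for 587 of 8460 genes, they were 17 and 1. By library size only, 23 were lower and 55.8% of calls were higher in males, in place of 73.5%. With the replicate number as a block, 56 and 22 genes passed and 0 members; same-numbered libraries deviated together only weakly (r from 0.03 to 0.05), although all 6 correlated best with their own number. Causes were not tested. Depth limits most the 2 members at or near 0, and for Aldh1l2 the overlap with D10Wsu102e may also limit the count.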

Other observations

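Markers of other cell types were read from the same fit; the single genes named were chosen after their values were seen. Erythroid markers summed to 294, 366 and 220.5 CPM in male replicates 1, 2 and 3, against 97.4, 95.5 and 117 CPM in the female ones, and 2 of 2 tested, the carbonic anhydrases Car1 and Car2, were higher in males (log2 fold changes 1.67 ± 0.15 and 1.52 ± 0.19, SE). Megakaryocyte markers had 38.4 to 111 CPM in males, against 21.7 to 30.6 CPM in females (1 of 1 tested, Pf4, higher by 1.92 ± 0.31 on the log2 scale), and mast and basophil markers 99.0 to 153 CPM in males, against 66.0 to 79.3 CPM in females (1 of 3 tested, Cpa3, higher by 1.44 ± 0.28). B cell markers had 61.5 to 69.9 CPM in males, against 88.6 to 92.8 CPM in females (1 of 2 tested, Ms4a1, lower, at -2.36 ± 0.48). T and natural killer cell markers had 153 to 172 CPM in males, against 129 to 144 CPM in females, with 4 of 5 markers in the table used here, without Cd3e (0 of 1 tested passed). Late neutrophil (9.32 to 13.3 CPM in males, 10.01 to 12.9 in females), monocyte (2586 to 3050 and 2678 to 2999), dendritic (1113 to 1252 and 1131 to 1269) and plasma cell markers (567 to 817 and 755 to 769.5) overlapped between the sexes, with 0 past the test. The part of these cells in the levels of the folate and formaldehyde genes was not tested.

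Ratios between members do not depend on the scaling of a library. The ratio of Adh5 to Mthfd2, chosen after its values were seen because these members lay farthest apart, was 2.64, 6.07 and 3.91 in male replicates 1, 2 and 3, against 2.17, 2.42 and 2.01 in the female ones, so the male libraries lay above the female ones. That of Adh5 to Esd overlapped, at 0.954, 1.43 and 1.12 in males, against 0.821, 0.959 and 0.852 in females. The ratio of Mthfd2 to Mthfd1 was 0.591, 0.509 and 0.561 in males, against 0.752, 0.602 and 0.741 in females. That of Mthfd2 to Shmt2 was 0.299, 0.235 and 0.333 in males, against 0.345, 0.35 and 0.409 in females. Both were lower in every male library, as was Mthfd2 itself, so they are no separate evidence. How often ratios of other genes separate the sexes was not counted. The ratio of Mthfd2 to Mthfd1l overlapped, at 0.764, 0.54 and 0.836 in males, against 0.989, 0.809 and 0.938 in females. The ratio of Shmt2 to Shmt1 overlapped, at 3.35, 4.6 and 2.76 in males, against 4.13, 4.21 and 4.98 in females.

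Aldh1a1 and Rrm2, 2 further pathway genes past an unadjusted level of 0.05, had log2 fold changes of 0.97 ± 0.38 and -0.28 ± 0.13 (adjusted p = 0.302 and 0.383 by edgeR). The 68 counts of Aldh1a1 gave 16.3, 23.3 and 9.64 CPM in male replicates 1, 2 and 3, against 10.5, 8.13 and 5.39 CPM in the female ones. Its groups thus overlapped, and male replicate 2 was the highest.

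Among 8459 other tested genes, those whose log2 level (pseudocount 1 CPM) over the 6 libraries was most like that of Shmt2, the member with the most counts, were Cep170 (Pearson r 0.989), Dnajc18 (0.986) and Aurkb (0.984). Aurkb had 173.5, 151 and 120.5 CPM in males, against 175, 167 and 150.1 CPM in females. These are the 3 highest of many values over few libraries that share their scaling.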
